A study of Mus musculus with 41 samples.

Results

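The genes described here are 35 mouse genes of glycolysis and of the transcriptional response to low oxygen, taken by symbol from a table of 24410 genes. They were split into 21 glycolysis members, which are glucose and lactate carriers, glycolytic enzymes and their direct regulators, and 14 hypoxia response members. All 35 were among the 15204 genes that passed the filter on low counts. Car9 and Adm passed with very few counts and are given apart from the others. Car9 passed through the Brd8 libraries of day 11, where it is highest, and was no longer tested without replicate 1 or 3 of that group.

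RNA-seq was made from R1-iCas9 cells, a mouse embryonic stem cell line carrying a Cas9 that doxycycline switches on, during differentiation to spinal cord neural progenitors. Cells of every group received doxycycline and were transfected with synthetic guide RNA, then grown in bFGF, in 5 µM CHIR99021 (a GSK3 inhibitor), in 100 nM retinoic acid with 10 nM SAG (an activator of Smoothened), and finally in SAG alone. The targeted groups, labelled as KO, received a pool of 5 guides against Eed, Ezh2, Brd8 or Nr6a1, and the NT group received a non-targeting guide. Each group was sampled at days 7, 9 and 11, with 3 libraries per group and day, except for 2 libraries of Nr6a1 at each day and of Brd8 at day 9 (41 libraries in 15 groups). The targeted groups are edited populations, not clones, so cells with different edits, or with none, are measured together. Eed and Ezh2 encode core subunits of the Polycomb repressive complex that methylates histone H3 on lysine 27. Brd8 encodes a bromodomain protein found with a histone acetyltransferase, and Nr6a1 a nuclear receptor without a known ligand.

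Libraries held 8581282 to 38240227 counts assigned to genes. All 10 neural progenitor markers (Sox1, Sox2, Sox3, Pax6, Nes, Vim, Fabp7, Olig2, Nkx6-1 and Nkx6-2) had counts in every group, and the haemoglobin genes Hbb-bt and Hbb-bs were at 0 in every library. The targeted transcripts were not lower than in NT beyond the test in any of the 12 comparisons. The Ezh2 transcript was higher in Ezh2 libraries at day 11 (log2 fold change 0.37 ± 0.092, adjusted p = 0.00736). A cut by Cas9 need not lower the level of a transcript, so these values do not check the labels. The labels do not say whether replicates were separate cultures, so the p-values measure the spread between libraries, which may be technical. In bulk samples a higher level in every cell and a larger share of cells that express a gene cannot be told apart.

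Glycolysis splits glucose into pyruvate, which can be turned into lactate and exported or passed to the mitochondria. Hypoxia-inducible factors (HIF) are transcription factors whose alpha subunits are hydroxylated and degraded while oxygen is present. When oxygen is low they induce most glycolytic enzymes together with genes for mitochondrial turnover, vessel growth and collagen modification, and dividing progenitors are known to use glycolysis more than neurons do. Levels below are counts scaled to the library total with TMM factors (CPM), differences are log2 fold changes with their standard error (SE), and a change is called where edgeR's quasi-likelihood test gives a Benjamini-Hochberg adjusted p under 0.05 over all tested genes.

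At day 11 most members were higher in the Eed, Ezh2 and Brd8 libraries than in NT. In Eed libraries 16 of 21 glycolysis members and 7 of 14 hypoxia response members rose, while 2 and 1 fell, so 26 of 35 changed, against 24.0% of all tested genes (13.3% higher and 10.6% lower). In Ezh2 libraries 15 glycolysis and 6 hypoxia response members rose and 1 glycolysis member fell (22 of 35, against 7.91% of all genes, with 5.22% higher and 2.7% lower). In Brd8 libraries 15 glycolysis and 8 hypoxia response members rose and 1 glycolysis member fell (24 of 35, against 17.8%, with 10.3% higher and 7.48% lower). Without Car9, which entered the test through these libraries, it was 7 of 13 hypoxia response members and 23 of 34 members in all. In Nr6a1 libraries no member was called at day 11 (0 of 35, against 0.0789%), by edgeR or by DESeq2, and 3 members had an unadjusted p under 0.05, against 8.18% of all genes. The absence of a call does not show that the levels equalled those of NT. The median log2 fold change of the glycolysis members at day 11 was 0.80 in Eed, 0.74 in Ezh2, 0.77 in Brd8 and 0.21 in Nr6a1. The median of the 13 hypoxia response members other than Car9 was 0.78, 0.77, 0.84 and 0.25 in the same order, while the median over all tested genes lay between 0.022 and 0.030 in these comparisons. All 4 comparisons of a day use the same 3 NT libraries, so their values are not independent of each other.

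**Figure D1:**
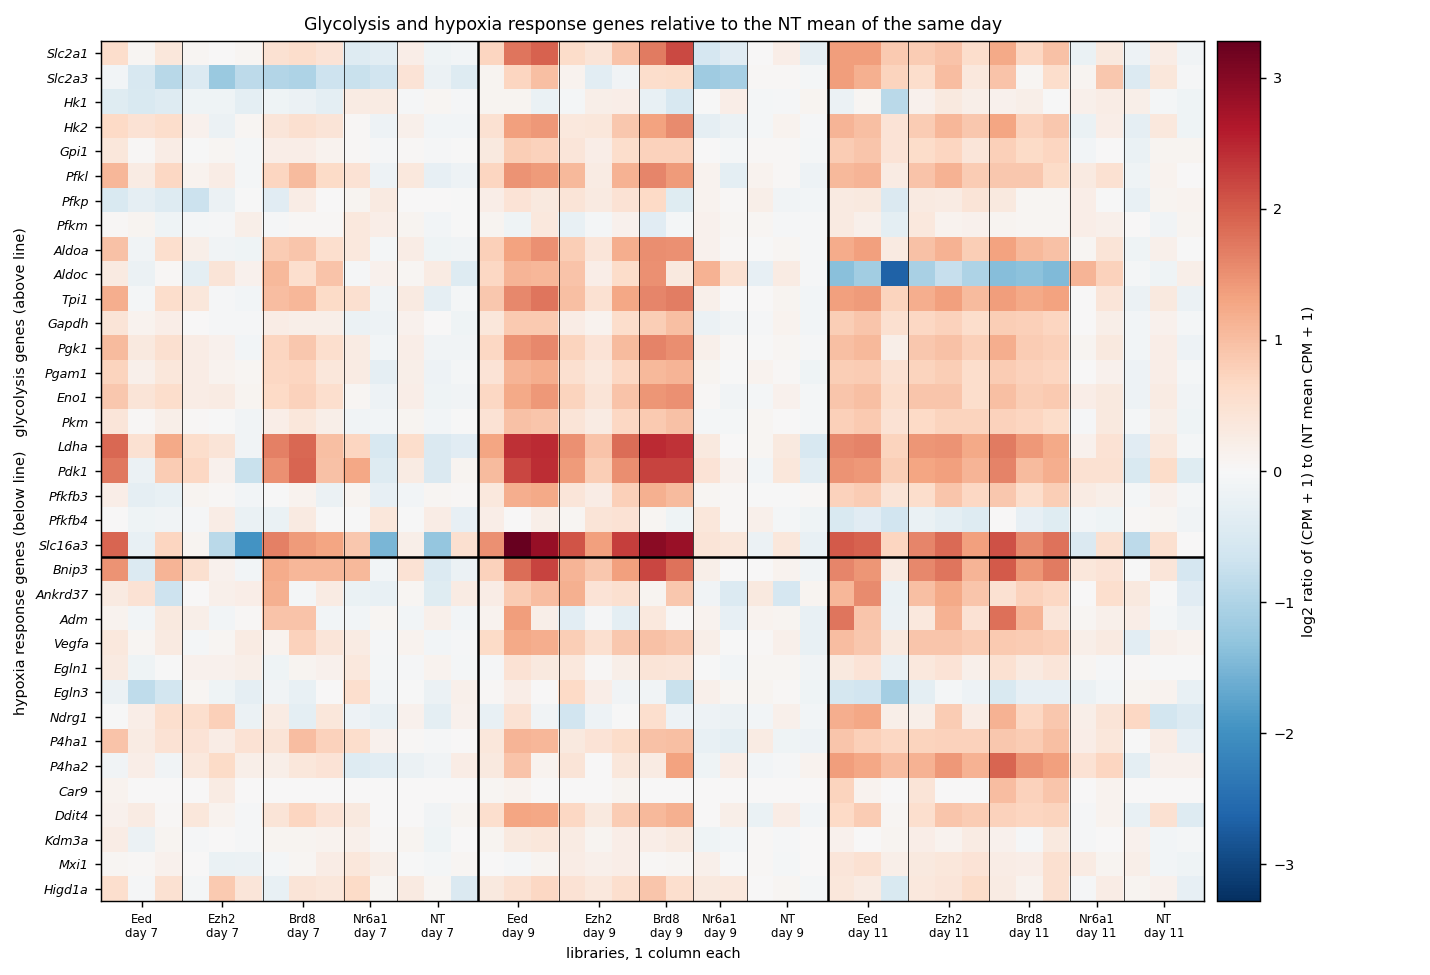
Log2 ratio of each library's level (CPM + 1) to the NT mean of the same day, for the 35 members (one per line) in 41 libraries (one per column, grouped by day and guide). Glycolysis members stand above the dividing line and hypoxia response members below it; most glycolysis members are higher in Eed, Ezh2 and Brd8 libraries at days 9 and 11, while Aldoc turns lower at day 11.

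The promoters of 5 members are shown, because 4 of these genes rose at days 9 and 11 in Eed and Brd8 libraries and at day 11 in Ezh2 libraries, and because Tpi1 rose in the same comparisons without the motif searched. The HIF core motif was searched as ACGTG or GCGTG and as their reverse complements CACGT or CACGC, so that CACGTG counts as 2 overlapping matches. Each sequence is the 250 bases before the transcription start in RefSeq's annotation of mouse GRCm38.p6, written 5′ to 3′ on the gene's strand, with matches in capitals. The regions are chr7:46845554-46845803 on the plus strand for Ldha (lactate dehydrogenase A), chrX:106186850-106187099 plus for Pgk1 (phosphoglycerate kinase), chr11:120948817-120949066 plus for Slc16a3 (the lactate exporter MCT4), chr7:138909507-138909756 minus for Bnip3 (a receptor for removal of mitochondria) and chr6:124814159-124814408 minus for Tpi1 (triosephosphate isomerase).
Ldha: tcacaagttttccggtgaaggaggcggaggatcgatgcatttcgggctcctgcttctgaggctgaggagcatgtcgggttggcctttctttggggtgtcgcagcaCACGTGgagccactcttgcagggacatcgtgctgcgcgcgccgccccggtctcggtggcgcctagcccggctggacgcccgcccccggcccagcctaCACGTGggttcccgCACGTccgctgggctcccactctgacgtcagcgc
Pgk1: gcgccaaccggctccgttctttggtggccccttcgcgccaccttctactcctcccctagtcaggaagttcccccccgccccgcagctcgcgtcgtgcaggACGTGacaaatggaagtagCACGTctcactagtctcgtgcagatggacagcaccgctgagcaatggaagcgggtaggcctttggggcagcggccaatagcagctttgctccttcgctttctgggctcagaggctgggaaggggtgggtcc
Slc16a3: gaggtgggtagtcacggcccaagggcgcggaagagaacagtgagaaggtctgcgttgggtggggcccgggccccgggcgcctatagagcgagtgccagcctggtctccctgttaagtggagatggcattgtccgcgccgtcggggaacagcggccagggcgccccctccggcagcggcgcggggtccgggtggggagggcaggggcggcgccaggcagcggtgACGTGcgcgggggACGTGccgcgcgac
Bnip3: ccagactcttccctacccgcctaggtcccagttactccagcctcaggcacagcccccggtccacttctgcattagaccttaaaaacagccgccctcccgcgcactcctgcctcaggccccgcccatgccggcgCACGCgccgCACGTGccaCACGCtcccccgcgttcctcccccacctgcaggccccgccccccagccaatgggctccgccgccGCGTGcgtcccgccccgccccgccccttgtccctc
Tpi1: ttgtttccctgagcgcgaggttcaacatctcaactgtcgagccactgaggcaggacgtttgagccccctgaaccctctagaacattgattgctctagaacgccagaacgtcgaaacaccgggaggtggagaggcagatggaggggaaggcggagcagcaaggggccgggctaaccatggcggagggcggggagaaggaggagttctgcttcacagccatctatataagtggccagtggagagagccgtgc
The stretch shown held 5 matches for Ldha, 2 for Pgk1, 2 for Slc16a3, 5 for Bnip3 and 0 for Tpi1. RefSeq windows of 300 bases (250 before and 50 after the start) were at hand for 33 of the 35 members. At least 1 window held a match for 18 of 20 glycolysis members (90.0%) and for 13 of 13 hypoxia response members, against 46.7% of 27025 genes. Counted by window, 78.4% of 51 member windows and 43.8% of all 32851 windows held one. The median number of CG dinucleotides per window was 21 for members and 7 for all windows, and the part of base composition in these shares was not tested. Gpi1 and Tpi1 were the members with a window and no match. A match is a run of letters, not a measured binding site.

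Glucose enters cells through the carriers encoded by Slc2a1 (GLUT1) and Slc2a3 (GLUT3) and is trapped by the hexokinases Hk1 and Hk2. Slc2a1 rose at days 9 and 11 in Eed and Brd8 libraries and at day 11 in Ezh2 libraries. At day 9 it had 209, 437 and 497 CPM in Eed, 194, 172 and 246 in Ezh2, 423 and 578 in Brd8 and 87 and 98.6 in Nr6a1 libraries, against 129, 151 and 105 CPM in NT. All Eed, Ezh2 and Brd8 libraries lay above all NT libraries, and both Nr6a1 libraries below them. The log2 fold change was 1.56 ± 0.20 for Eed (adjusted p = 2.33e-05) and 1.96 ± 0.22 for Brd8 (adjusted p = 1.75e-07). At day 11 Slc2a1 had 226, 225 and 158 CPM in Eed, 155, 167 and 129 in Ezh2 and 205, 139.7 and 170.1 in Brd8 libraries, against 76.7, 102 and 80.4 CPM in NT, with log2 fold changes of 1.24, 0.80 and 0.99. The Eed, Ezh2 and Brd8 libraries lay above all NT libraries at day 11 as well. The Ezh2 call was lost without Ezh2 replicate 2, NT replicate 1 or NT replicate 3.

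Hk2, the hexokinase that HIF induces, rose at day 11 by 0.91 ± 0.19 in Eed, 0.96 ± 0.19 in Ezh2 and 1.01 ± 0.19 in Brd8 libraries on the log2 scale, and at day 9 by 1.16 ± 0.18 in Eed and 1.45 ± 0.20 in Brd8. Its day 9 levels were 79.4, 144 and 152 CPM in Eed, 71.5, 72.7 and 104 in Ezh2 and 141 and 165 in Brd8 libraries, against 53.4, 60.0 and 53.9 CPM in NT, with no overlap. Hk1, the hexokinase found in most tissues, did not share this: its log2 fold change at day 9 was -0.0038 ± 0.14 in Eed and -0.39 ± 0.15 in Brd8, neither called. At day 7 Hk1 fell in Eed libraries (33.8, 31.3 and 33.2 CPM, against 43.8, 46.9 and 43.4 CPM in NT; log2 fold change -0.44 ± 0.14, adjusted p = 0.0444). Every Eed library lay below every NT library, and the call was lost when any one of the 6 libraries was left out. Slc2a3 moved by day. At day 7 it fell in Brd8 libraries (37.9, 36.9 and 46.6 CPM, against 103, 66.3 and 56 CPM in NT; log2 fold change -0.91 ± 0.25, adjusted p = 0.0275), a call lost without Brd8 replicate 1, Brd8 replicate 2 or NT replicate 1. The Ezh2 and Nr6a1 libraries of day 7 also all lay below the NT libraries, without a call. Their log2 ratios to the NT mean (CPM + 1) were -0.44, -1.21 and -0.85 in Ezh2 and -0.72 and -0.64 in Nr6a1, against 0.45, -0.18 and -0.42 in NT. At day 11 Slc2a3 rose in Eed libraries (190.3, 164 and 121 CPM, against 52.8, 94.9 and 70.0 CPM in NT; 1.13 ± 0.25, adjusted p = 0.000602), and all Eed libraries lay above all NT libraries. The same log2 ratios at day 11 were 0.59, 1.02 and 0.35 in Ezh2 and 0.93, 0.07 and 0.58 in Brd8, against -0.45, 0.38 and -0.05 in NT. Both groups overlapped with NT and neither passed.

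The upper enzymes turn glucose 6-phosphate into triose phosphates. Gpi1 (glucose phosphate isomerase), Pfkl (liver-type phosphofructokinase), Aldoa (aldolase A) and Tpi1 rose in Eed and Brd8 libraries at days 9 and 11 and in Ezh2 libraries at day 11. At day 11 the log2 fold changes in Eed, Ezh2 and Brd8 were 0.75, 0.58 and 0.71 for Gpi1, 0.88, 0.99 and 0.82 for Pfkl, 1.03, 0.98 and 1.13 for Aldoa, and 1.19, 1.20 and 1.31 for Tpi1. The other phosphofructokinases, Pfkm (muscle type) and Pfkp (platelet type), passed the test in none of the 9 comparisons of Eed, Ezh2 or Brd8 with NT. Their log2 fold changes ran from -0.21 to 0.20 for Pfkm and from -0.44 to 0.42 for Pfkp. Tpi1 at day 11 had 506, 526 and 328 CPM in Eed, 455, 505 and 407 in Ezh2, 515, 471 and 495 in Brd8 and 201 and 261 in Nr6a1 libraries, against 173, 248 and 175 CPM in NT. The Eed, Ezh2 and Brd8 libraries were all above the NT libraries. Of the kinase-phosphatases that set fructose 2,6-bisphosphate and so the pace of phosphofructokinase, Pfkfb3 rose at day 11 by 0.69, 0.74 and 0.77 in Eed, Ezh2 and Brd8. Pfkfb4 fell in Eed libraries at day 11 (-0.52 ± 0.17, adjusted p = 0.0258). That call was lost without either of Eed replicates 1 and 3, and without either of NT replicates 1 and 2.

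The lower enzymes carry triose phosphates to pyruvate, and 5 of them are members: Gapdh, Pgk1, Pgam1, Eno1 and Pkm. All 5 rose at days 9 and 11 in Eed and Brd8 libraries and at day 11 in Ezh2 libraries. Gapdh, which oxidises glyceraldehyde 3-phosphate, had 3348, 3616 and 2788 CPM in Eed, 3099, 3276 and 2867 in Ezh2, 3338, 3296 and 3109.9 in Brd8 and 1953 and 2189.9 in Nr6a1 libraries at day 11, against 1795, 2121 and 1849 CPM in NT. The Eed, Ezh2 and Brd8 libraries lay above all NT libraries. Its log2 fold changes were 0.76 ± 0.10 (adjusted p = 8.16e-07), 0.68 ± 0.10 (adjusted p = 3.20e-05) and 0.76 ± 0.10 (adjusted p = 1.24e-06), the smallest adjusted p of the members in each of these comparisons. Pgk1, the first step that yields ATP, had 261, 454 and 481 CPM in Eed, 271, 223 and 336 in Ezh2, 503 and 467 in Brd8 and 181 and 165 in Nr6a1 libraries at day 9, against 159.8, 168 and 157 CPM in NT. Eed replicate 1 was the lowest of the Eed libraries, and all Eed, Ezh2 and Brd8 libraries exceeded the NT libraries. Pgk1 rose by 1.30 ± 0.19 in Eed and 1.58 ± 0.21 in Brd8 at day 9. At day 11 the log2 fold changes in Eed, Ezh2 and Brd8 were 0.80, 0.88 and 0.96 for Pgk1, 0.72, 0.71 and 0.77 for Pgam1 (phosphoglycerate mutase), 0.84, 0.81 and 0.89 for Eno1 (enolase), and 0.71, 0.71 and 0.70 for Pkm (pyruvate kinase). The counts of Gapdh and Eno1 were not whole in any library (41 of 41); the counting tool is not given in the sources used here, so how reads shared with copies of these genes were assigned is not known. Eno1b, a listed near-identical copy of Eno1, had log2 fold changes of 0.82, 0.84 and 0.94 at day 11, so the Eno1 values are uncertain to that extent.

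Ldha, which turns pyruvate into lactate, and Slc16a3, which exports the lactate, had the largest rises among glycolysis members in Eed and Brd8 libraries at days 9 and 11 and in Ezh2 libraries at day 11; they were picked for description after their values were seen. At day 9 Ldha had 194, 419 and 436 CPM in Eed, 223, 151 and 283 in Ezh2, 435 and 416 in Brd8 and 98.3 and 78.9 in Nr6a1 libraries, against 82.8, 98.9 and 54.9 CPM in NT. Every Eed, Ezh2 and Brd8 library lay above every NT library, while the Nr6a1 libraries lay within the NT range. Ldha rose 4.39-fold in Eed (log2 2.14 ± 0.33, adjusted p = 0.000173) and 5.36-fold in Brd8 (log2 2.42 ± 0.36, adjusted p = 1.09e-05). At day 11 it had 305, 313 and 168 CPM in Eed, 278, 287 and 243 in Ezh2, 331, 274 and 241 in Brd8 and 112 and 142 in Nr6a1 libraries, against 77.6, 129.9 and 97.1 CPM in NT. The log2 fold changes were 1.37 ± 0.33, 1.41 ± 0.33 and 1.48 ± 0.33, with no overlap between Eed, Ezh2 or Brd8 libraries and NT. Slc16a3 at day 9 had 22.4, 79.1 and 58.3 CPM in Eed, 33.4, 19.8 and 38.8 in Ezh2 and 63.5 and 58.1 in Brd8 libraries, against 6.16, 9.59 and 5.94 CPM in NT. No library of these groups reached down to the NT range. Its log2 fold change was 2.84 ± 0.54 in Eed (adjusted p = 0.00174) and 3.04 ± 0.57 in Brd8 (adjusted p = 0.000231). At day 11 it was 1.77 ± 0.52 in Eed, 1.72 ± 0.52 in Ezh2 and 1.93 ± 0.53 in Brd8 libraries. The day 11 calls were lost without Eed replicate 1 or NT replicate 1 in Eed, without Ezh2 replicate 1, Ezh2 replicate 2, NT replicate 1 or NT replicate 3 in Ezh2, and without NT replicate 1 in Brd8. Pdk1, a kinase that holds pyruvate dehydrogenase inactive, rose at day 11 by 1.29 ± 0.38, 1.28 ± 0.38 and 1.34 ± 0.38 in Eed, Ezh2 and Brd8, and at day 9 by 2.02 ± 0.38 in Eed and 2.26 ± 0.41 in Brd8. Its day 11 calls were lost without NT replicate 1 or 3 in all 3 groups, without Ezh2 replicate 1 or 2 in Ezh2 and without Brd8 replicate 1 in Brd8.

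**Figure D2:**
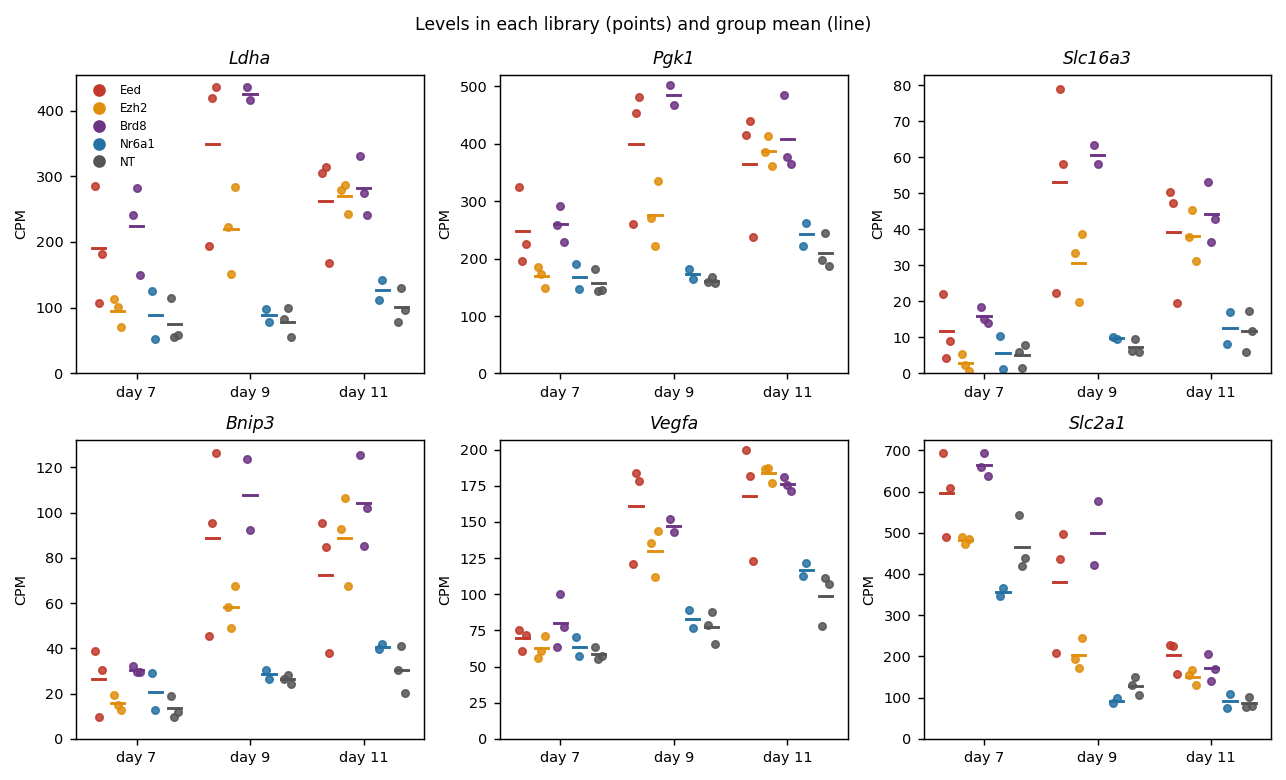
CPM of Ldha, Pgk1, Slc16a3, Bnip3, Vegfa and Slc2a1 by day and guide; points are libraries and bars their group mean (3 libraries, or 2 for Nr6a1 and for Brd8 at day 9). The Eed and Brd8 points lie above the NT points at days 9 and 11, except Bnip3 and Pgk1 in Eed replicate 3 at day 11, which lie within the NT range; the Nr6a1 points lie near them, and Slc2a1 falls with time in NT.

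Aldoc, the aldolase typical of brain and of astrocytes, turned with time. At day 9 it had 4.74, 6.72 and 6.57 CPM in Eed, 5.79, 3.15 and 4.46 in Ezh2, 9.07 and 3.47 in Brd8 and 6.86 and 4.1 in Nr6a1 libraries, against 1.95, 3.3 and 2.48 CPM in NT. All Eed, Brd8 and Nr6a1 libraries lay above the NT libraries, while the Ezh2 range overlapped with NT. The log2 fold change was 1.18 ± 0.35 in Eed (adjusted p = 0.0382) and 1.23 ± 0.38 in Brd8 (adjusted p = 0.0235). The Eed call was lost without Eed replicate 2 or 3 or NT replicate 1 or 3, and the Brd8 call without Brd8 replicate 1 or NT replicate 1 or 3. At day 11 it had 10.2, 12.1 and 3.61 CPM in Eed, 12.9, 16.1 and 13.3 in Ezh2, 10.0, 10.4 and 9.67 in Brd8 and 61.6 and 48 in Nr6a1 libraries, against 26.9, 25.2 and 32 CPM in NT. The Eed, Ezh2 and Brd8 libraries lay below the NT libraries and the Nr6a1 libraries above them. Aldoc fell in Eed (-1.68 ± 0.32, adjusted p = 0.000145), in Ezh2 (-0.99 ± 0.31, adjusted p = 0.0435) and in Brd8 (-1.48 ± 0.32, adjusted p = 0.000884). The Ezh2 call was lost without any one of the 6 libraries. The Nr6a1 value of 0.97 ± 0.34 did not pass (adjusted p = 0.344). Glia markers moved with Aldoc at day 11, when 10.6%, 2.7% and 7.48% of all tested genes fell in Eed, Ezh2 and Brd8. Of the 7 glia markers tested, 5 fell in Eed, 2 in Ezh2 and 4 in Brd8. Their summed level was 297 to 319.9 CPM in Eed, 329.5 to 456 in Ezh2, 359 to 463 in Brd8 and 699 to 964 in Nr6a1, against 505 to 583 CPM in NT, and the part of glial cells in the Aldoc values was not tested.

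**Figure D3:**
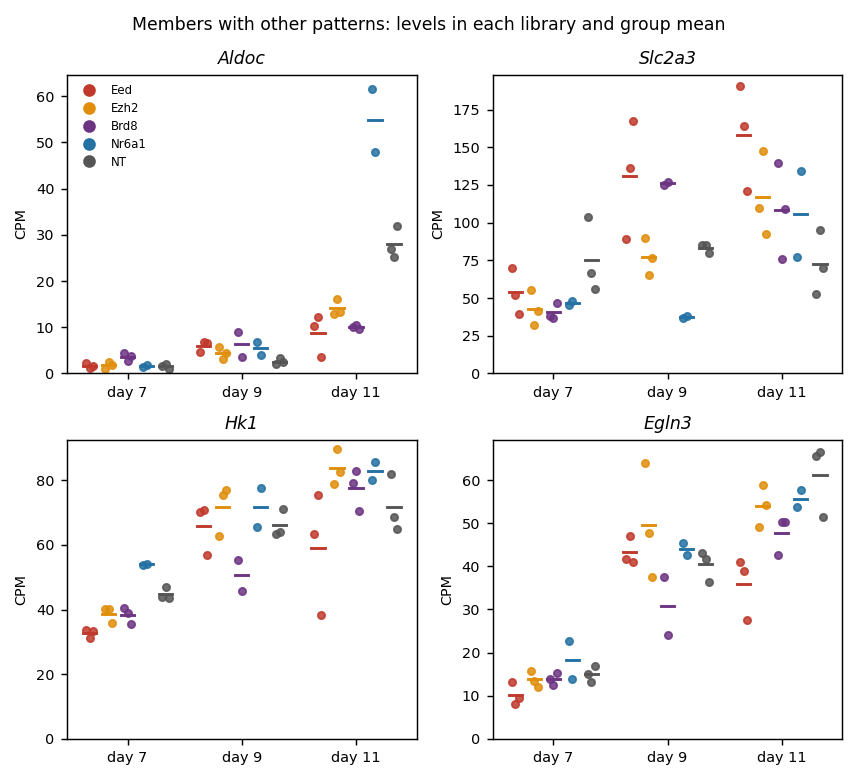
CPM of Aldoc, Slc2a3, Hk1 and Egln3 by day and guide; points are libraries and bars their group mean (3 libraries, or 2 for Nr6a1 and for Brd8 at day 9). Aldoc lies below NT in Eed, Ezh2 and Brd8 at day 11. Egln3 lies below NT in Eed and Brd8 at day 11, and only its Eed difference was called.

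Among the hypoxia response members, Bnip3, Vegfa, P4ha1, P4ha2, Ddit4 and Mxi1 rose at day 11 in Eed, Ezh2 and Brd8 libraries. Bnip3 had 95.3, 84.7 and 37.8 CPM in Eed, 92.7, 107 and 67.7 in Ezh2, 125, 85.1 and 102 in Brd8 and 39.7 and 41.9 in Nr6a1 libraries, against 30.4, 40.9 and 20.4 CPM in NT. Eed replicate 3 lay within the NT range, and all Ezh2 and Brd8 libraries lay above it. The log2 fold changes were 1.26 ± 0.34 (adjusted p = 0.00528), 1.54 ± 0.34 (adjusted p = 0.00249) and 1.77 ± 0.34 (adjusted p = 0.000208). Vegfa, the growth factor that draws blood vessels, had 199.6, 182 and 123 CPM in Eed, 187, 187 and 177 in Ezh2, 181, 176 and 172 in Brd8 and 113 and 121 in Nr6a1 libraries, against 77.7, 111 and 107 CPM in NT. All the targeted libraries lay above the NT libraries. Vegfa rose by 0.78 ± 0.16 in Eed, 0.90 ± 0.16 in Ezh2 and 0.84 ± 0.16 in Brd8, and the Nr6a1 value of 0.25 ± 0.17 did not pass (adjusted p = 0.787).

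P4ha1 and P4ha2, the catalytic subunits of collagen prolyl hydroxylase, rose in the same 3 groups at day 11. P4ha1 had log2 fold changes of 0.82 ± 0.18 in Eed, 0.77 ± 0.17 in Ezh2 and 0.93 ± 0.18 in Brd8. P4ha2 had 6.49, 6.07 and 4.92 CPM in Eed, 5.44, 6.81 and 5.45 in Ezh2, 9.88, 7.07 and 6.41 in Brd8 and 3.04 and 3.75 in Nr6a1 libraries, against 1.32, 2.23 and 2.21 CPM in NT. All targeted libraries lay above NT, and the log2 fold changes were 1.61 ± 0.36, 1.62 ± 0.36, 2.02 ± 0.36 and, not passed, 0.83 ± 0.39 (adjusted p = 0.588). Ddit4, an inhibitor of mTOR complex signalling, rose by 0.57, 0.80 and 0.74, and Mxi1, an antagonist of MYC, by 0.38, 0.39 and 0.34 in Eed, Ezh2 and Brd8. The Ezh2 calls of both were lost without NT replicate 3, and that of Mxi1 also without Ezh2 replicate 3 or NT replicate 2. The Eed call of Ddit4 was lost without Eed replicate 1 or 2 or NT replicate 1 or 3. The Brd8 call of Ddit4 was lost without NT replicate 3, and that of Mxi1 without Brd8 replicate 3 or NT replicate 2 or 3. A fit of only the groups compared also ended the calls of Mxi1 in all 3 groups, of P4ha2 in Eed and Ezh2 and of Ddit4 in Eed.

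The 2 oxygen-sensing prolyl hydroxylases among the members, Egln1 and Egln3, are themselves HIF targets and mark HIF for degradation. Egln3 fell in Eed libraries at day 11, with 41, 38.9 and 27.5 CPM, against 65.7, 66.4 and 51.4 CPM in NT (-0.77 ± 0.18, adjusted p = 0.0015). All Eed libraries lay below all NT libraries. Egln3 had 49, 58.9 and 54.2 CPM in Ezh2 and 42.6, 50.3 and 50.2 in Brd8 libraries, where the log2 fold changes of -0.18 ± 0.18 and -0.36 ± 0.18 did not pass. All Brd8 libraries lay below all NT libraries as well, while the Ezh2 range overlapped with NT. Egln1 rose in Brd8 libraries at day 9 (0.42 ± 0.14) and day 11 (0.40 ± 0.13). The day 9 call was lost when any one of the 5 libraries was left out, and the day 11 call without Brd8 replicate 1 or 3 or any one NT library. Its Eed values were 0.26 ± 0.13 and 0.21 ± 0.13 and its Ezh2 values 0.20 ± 0.13 and 0.32 ± 0.13, none passed. Higd1a, a mitochondrial protein of the respiratory chain, rose in Brd8 at day 9 (0.79 ± 0.26), a call that was also lost without any one of the 5 libraries. Ndrg1, a stress-responsive gene, rose in Eed at day 11 (1.11 ± 0.40), with 11.1, 11.9 and 5.03 CPM in Eed, against 7.51, 2.5 and 2.92 CPM in NT, which overlap. That call was lost without Eed replicate 1 or 2 or NT replicate 2 or 3. Kdm3a, a histone demethylase, Ankrd37, an ankyrin repeat protein, and Adm, the peptide adrenomedullin, passed in none of the 9 comparisons.

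Car9, a carbonic anhydrase of the cell surface, had 12, 10 and 9 counts in the Brd8 libraries at day 11, against 0 counts in all 9 NT libraries. Against a floor of 3 counts over the NT day 11 group, it was at least 9.55-fold higher in Brd8. In Eed libraries at day 11 it had 16, 1 and 0 counts, so 1 library held nearly all of them, and in Ezh2 libraries 4, 0 and 0. The Brd8 call was lost without Brd8 replicate 2, without any one of the NT libraries of that day and with no filter on low counts, and Car9 could not be tested without Brd8 replicate 1 or 3, so the call did not hold when any one of the 6 libraries was left out. Adm at day 11 had 2.82, 1.15 and 0 CPM in Eed, 0.439, 1.49 and 0.571 in Ezh2, 2.96, 1.46 and 0.493 in Brd8 and 0.179 and 0.271 in Nr6a1 libraries, against 0.31, 0.0928 and 0 CPM in NT, and its fitted fold changes are not given because so few counts stand behind them.

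**Figure D4:**
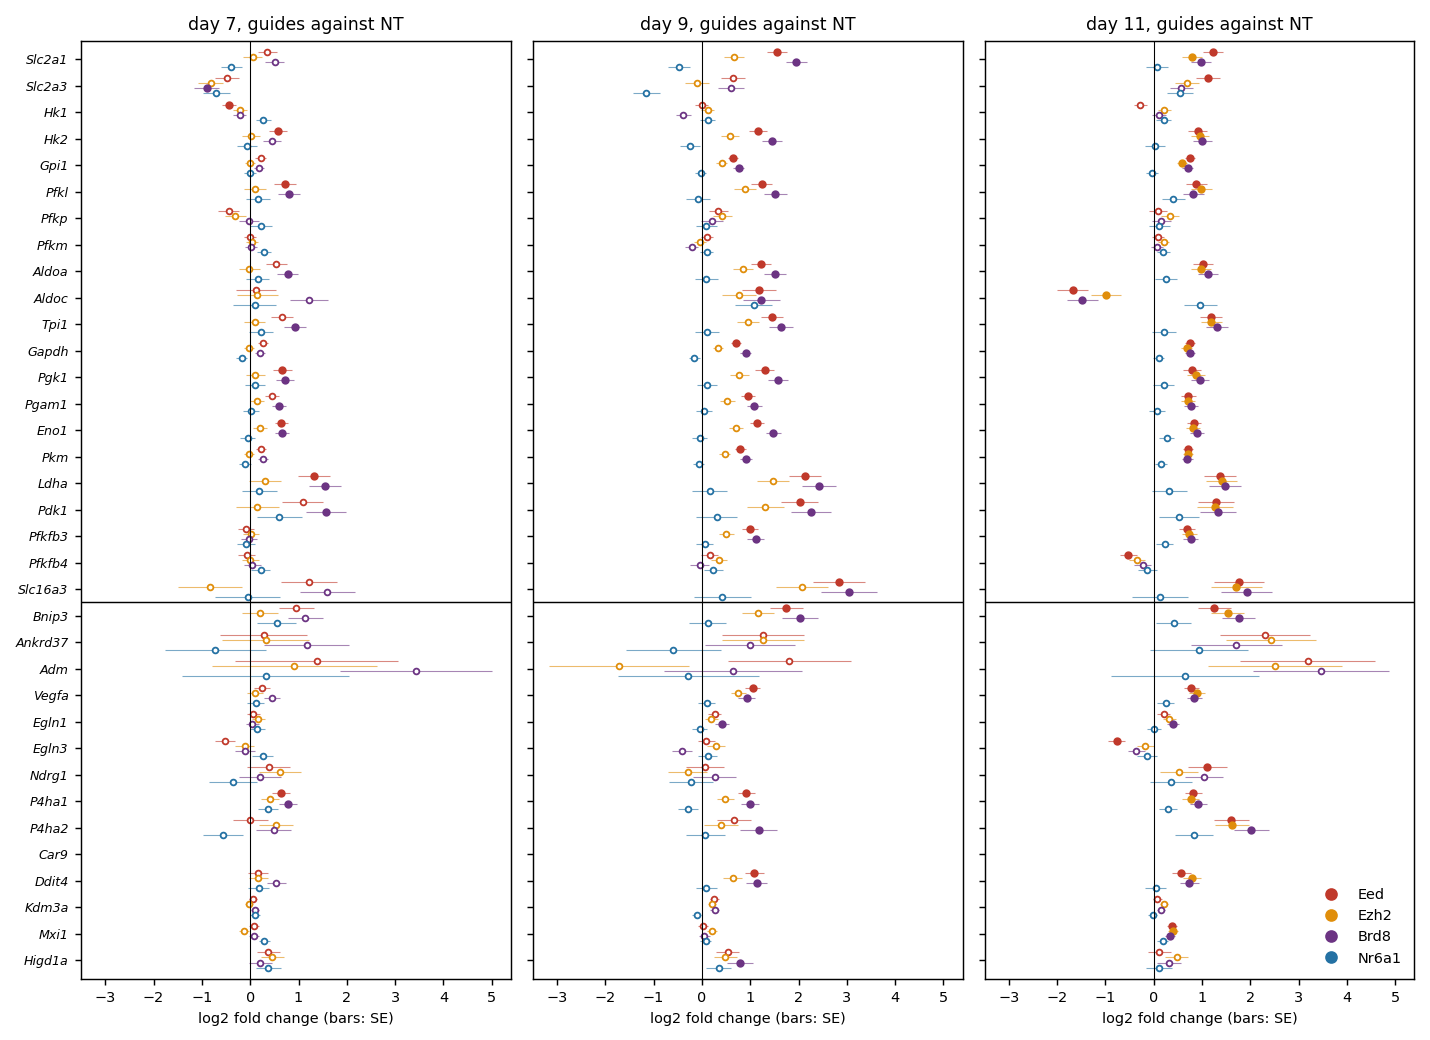
Log2 fold change against NT (points) with its SE (bars) for each member, with a panel per day and a colour per guide; filled points have an adjusted p under 0.05, and the Car9 line is empty because NT held no counts. At day 9 the Eed and Brd8 points of most glycolysis members are filled and above 0 while no Ezh2 point is filled; at day 11 Eed, Ezh2 and Brd8 points of most of them are filled.

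At day 9 the rise was called in Eed and Brd8 libraries. In Eed 16 glycolysis and 4 hypoxia response members rose and none fell (20 of 35, against 5.14% of all tested genes, with 2.99% higher and 2.16% lower). In Brd8 16 glycolysis and 7 hypoxia response members rose and none fell (23 of 35, against 15.5%, with 7.72% higher and 7.81% lower). The glycolysis median was 1.14 in Eed and 1.23 in Brd8, and the hypoxia response median without Car9 was 0.67 and 0.79. The hypoxia response members called in Eed were Vegfa (1.05), Ddit4 (1.09), P4ha1 (0.92) and Bnip3 (1.75), and the last call was lost without Eed replicate 3. In Brd8 the same 4 genes had log2 fold changes of 0.93, 1.13, 1.00 and 2.03, and P4ha2 rose by 1.18, a call lost without Brd8 replicate 2 or any one NT library. Of these calls, 18 of 20 in Eed and 19 of 23 in Brd8 held in every alternative tried, and among the glycolysis members the call of Aldoc was the exception in both groups.

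In Ezh2 libraries at day 9 no member passed (0 of 35, against 0.0% of all tested genes), while their levels lay mostly above NT. By unadjusted p under 0.05, 25 of 35 members were counted, 18 of glycolysis and 7 of the hypoxia response, against 4.51% of all genes. All 3 Ezh2 libraries exceeded all NT libraries for 16 of 21 glycolysis members and 8 of 14 hypoxia response members, against 5.92% of all genes. The smallest adjusted p values were those of Eno1 (0.71 ± 0.14, adjusted p = 0.193) and Vegfa (0.75 ± 0.16, adjusted p = 0.193), and Ldha had 1.47 ± 0.33 (adjusted p = 0.247). DESeq2 called 3 members here, and edgeR called 6 without Ezh2 replicate 2, whose glycolysis median log2 ratio to NT, 0.342, was the lowest of the Ezh2 libraries of that day (0.534 and 0.786 in the others). With no filter on low counts 18 members passed in Ezh2 at day 9, and 10 passed when only the Ezh2 and NT libraries of that day were fitted. The glycolysis median was 0.58 and the hypoxia response median without Car9 was 0.39. No test compared Ezh2 with Eed or Brd8 at day 9.

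At day 7 fewer members were called, and most of these calls rested on single libraries. In Eed 5 glycolysis members rose and 1 fell, and 1 hypoxia response member rose (7 of 35, against 8.66% of all tested genes, with 2.9% higher and 5.76% lower). In Brd8 8 glycolysis members rose and 1 fell, and 1 hypoxia response member rose (10 of 35, against 4.75%, with 1.3% higher and 3.45% lower). In Ezh2 no member passed (0 of 35, against 0.151%), where 2 members had an unadjusted p under 0.05, against 11.3% of all genes, and DESeq2 called 0. Nor did any in Nr6a1 (0 of 35, against 0.145%), where 3 had an unadjusted p under 0.05, against 7.38%, and DESeq2 called 0. Ldha had 284, 108 and 182 CPM in Eed and 241, 283 and 151 in Brd8 libraries, against 114, 54.9 and 58.8 CPM in NT. Eed replicate 2 lay below NT replicate 1, and all Brd8 libraries lay above NT. Ldha rose by 1.32 ± 0.33 in Eed (adjusted p = 0.00749) and by 1.54 ± 0.33 in Brd8 (adjusted p = 0.00342). Eno1 rose by 0.65 ± 0.14 in Eed (adjusted p = 0.00237) and 0.66 ± 0.14 in Brd8 (adjusted p = 0.0036). P4ha1 rose by 0.63 ± 0.19 in Eed and 0.78 ± 0.18 in Brd8.

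The number called in Eed at day 7 fell to 2 without Eed replicate 1, to 4 without Eed replicate 3, and to 1 without NT replicate 2 or without NT replicate 3, against 7 with all libraries. In Brd8 it fell to 3 without Brd8 replicate 1, to 2 without Brd8 replicate 2, and to 4 without NT replicate 2 or without NT replicate 3, against 10 with all libraries. With no filter on low counts the number called at day 7 was 18 in Eed, 18 in Brd8 and 3 in Ezh2, and with a fit of only the groups compared it was 14, 18 and 1 in the same order. Eno1 in Eed, and Eno1 and Ldha in Brd8, passed in every alternative tried.

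Nr6a1 libraries showed no called member at any day; with no filter on low counts 4, 2 and 1 members passed at days 7, 9 and 11, and with a fit of only the groups compared 1 passed at day 9. At day 9 the count was 0 of 35, against 0.151% of all tested genes, with 3 by unadjusted p under 0.05, against 7.12%, and 0 by DESeq2. The glycolysis median was 0.10 at day 7, 0.09 at day 9 and 0.21 at day 11. Slc2a3 had 36.9 and 38.4 CPM in Nr6a1 libraries at day 9, against 84.9, 85.5 and 79.6 CPM in NT, below all NT libraries, with a log2 fold change of -1.15 ± 0.29 that did not pass (adjusted p = 0.111). Aldoc had 1.07 ± 0.38 at day 9 (adjusted p = 0.462).

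**Figure D5:**
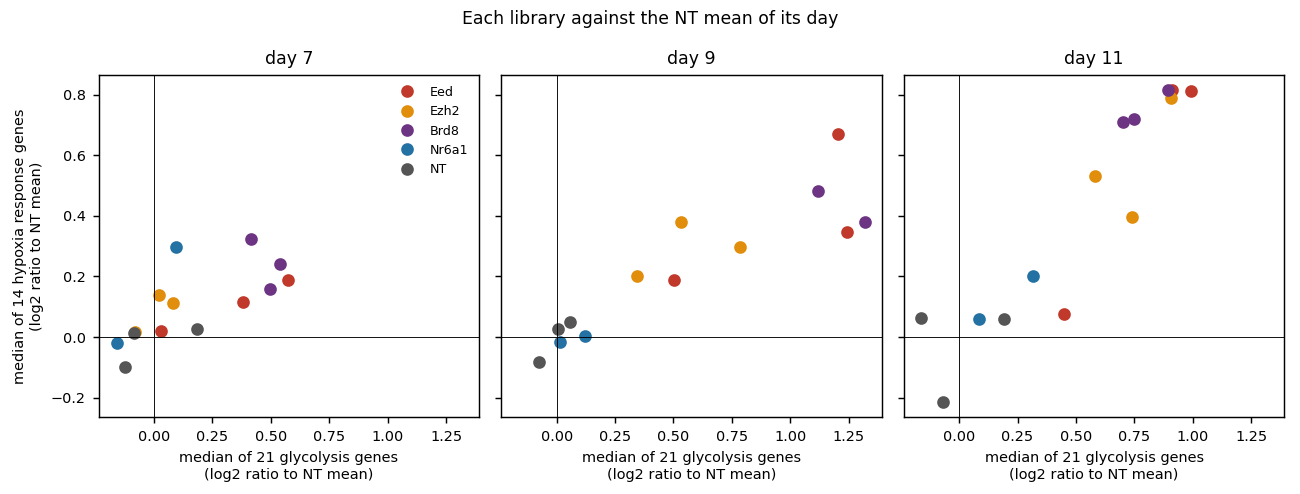
Each point is 1 library, placed by the median log2 ratio of its glycolysis members (x) and hypoxia response members (y) to the NT mean of the same day (CPM + 1), with colours for guides and a panel per day. At days 9 and 11 Eed, Ezh2 and Brd8 libraries lie to the right of the NT libraries; Eed replicate 1 at day 9 (0.503) and Eed replicate 3 at day 11 (0.450) are the Eed libraries nearest to NT.

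The libraries of a group did not all move by the same amount. Over the 21 glycolysis members, the median log2 ratio to the NT mean at day 9 was 0.503 in Eed replicate 1, against 1.20 and 1.24 in the other Eed libraries. At day 11 it was 0.450 in Eed replicate 3, against 0.912 and 0.992 in the others, and the hypoxia response median of that library was 0.0749, against 0.815 and 0.812. At day 7 Eed replicate 2 had 0.0289, against 0.572 and 0.382 in the others. The single NT libraries ran from -0.163 to 0.192 over all days. Eed replicate 3 and NT replicate 3 of day 11 agreed least with the other libraries of their group over all genes; without both, 23 members were called in Eed, 17 in Ezh2 and 21 in Brd8 at day 11. Without NT replicate 3 alone, 6 of the Ezh2 calls at day 11 were lost (Slc2a1, Aldoc, Pdk1, Slc16a3, Ddit4 and Mxi1).

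In NT libraries the members did not move together with time. Between day 7 and day 11, 5 glycolysis members rose and 4 fell, and 7 hypoxia response members rose and none fell (16 of 35, against 45.2% of all tested genes, with 21.9% higher and 23.3% lower). From day 7 to day 9 it was 13 of 35 (27.9% of all genes), and from day 9 to day 11 it was 5 of 35 (23.5%). The share changed from day 7 to day 11 was near that of all tested genes. It was somewhat above the share of all genes from day 7 to day 9 and below it from day 9 to day 11. These counts are therefore no result about the members. Slc2a1 averaged 467 ± 66.3 CPM at day 7, 129 ± 22.8 at day 9 and 86.5 ± 13.8 at day 11 (SD, n = 3 each), and the log2 difference of day 11 from day 7 was -2.43 ± 0.21 (adjusted p = 2.48e-12). Gapdh averaged 3774 ± 374 CPM, 2393 ± 165 and 1922 ± 175 at the same days (-0.97 ± 0.10 from day 7 to day 11). Pkm (-0.75) and Hk2 (-0.97) also fell. Aldoc averaged 1.57 ± 0.589, 2.58 ± 0.683 and 28.1 ± 3.52 CPM at days 7, 9 and 11 (4.14 ± 0.38, adjusted p = 1.09e-11), and Pfkp (1.53), Pdk1 (1.71), Hk1 (0.69) and Pfkfb4 (0.46) rose as well. Among hypoxia response members Egln3 rose most, with 15 ± 1.91, 40.5 ± 3.54 and 61.2 ± 8.45 CPM at days 7, 9 and 11 (2.03 ± 0.19), followed by Ndrg1 (1.35), Bnip3 (1.15), P4ha1 (0.84), Vegfa (0.74), Ddit4 (0.65) and Mxi1 (0.38). The calls of Pfkfb4, Ndrg1, Bnip3 and Ddit4 from day 7 to day 11 were each lost without 1 or more of the NT libraries: Pfkfb4 without day 11 replicate 1 or 2 or day 7 replicate 1 or 3, Ndrg1 without day 11 replicate 1 or day 7 replicate 2, Bnip3 without day 11 replicate 2 or day 7 replicate 2, and Ddit4 without day 11 replicate 2.

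The step from day 9 to day 11 was called for Aldoc (3.42), Pfkp (0.86), Egln3 (0.60), Slc2a1 (-0.58) and Gapdh (-0.32). That number was 3 without NT day 9 replicate 2 and 3 without NT day 11 replicate 3, the calls of Slc2a1 and Gapdh being lost in both. Per kilobase of merged exon length, NT levels at day 11 were 465 CPM for Gapdh, 141 for Pgam1, 135 for Pkm and 93.5 for Pgk1 at the high end. Ldha had 30.7, Slc2a1 24.7, Bnip3 13.5, Slc16a3 2.20, Ndrg1 0.654 and P4ha2 0.308. Ankrd37 (0.194) and Adm (0.0829) lay lower still, and Car9 had no counts.

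The change of an effect between days was tested directly as the day 11 difference from NT minus the day 7 difference. It passed for 6 of 35 members in Eed (6.32% of all tested genes), for 4 in Ezh2 (1.41%) and for 5 in Brd8 (4.55%), and for 0 in Nr6a1 (0.112%), where 2 members had an unadjusted p under 0.05, against 7.75% of all genes, and DESeq2 called 0. Gapdh changed by 0.50 ± 0.15 in Eed, 0.71 ± 0.15 in Ezh2 and 0.55 ± 0.15 in Brd8, so its difference from NT was larger at day 11. Slc2a3 changed by 1.62 ± 0.35, 1.51 ± 0.35 and 1.48 ± 0.35, and Gpi1 by 0.53, 0.59 and 0.52, where the Brd8 call was lost with DESeq2's size factors. Aldoc changed by -1.80 ± 0.53 in Eed and -2.69 ± 0.50 in Brd8. Pkm passed in Eed (0.49) and Ezh2 (0.74), and Pfkfb3 in Eed (0.78) and Brd8 (0.79). The Eed call of Pkm was lost with DESeq2's size factors, with the replicate block and in a fit of only the groups compared. The calls of Gapdh, Pkm and Pfkfb3 in Eed were each lost without most of the single libraries compared. So were those of Gpi1 in Ezh2 and of Gpi1 and Pfkfb3 in Brd8. The Eed call of Aldoc was lost without Eed day 11 replicate 3, Eed day 7 replicate 1 or 3, NT day 11 replicate 3 or NT day 7 replicate 1 or 3. That of Slc2a3 in Ezh2 was lost without replicate 2 of Ezh2 or replicate 1 of NT at either day. In Brd8 the call of Slc2a3 was lost without NT day 7 replicate 1, and that of Gapdh without that library or NT day 11 replicate 1 or 3. No hypoxia response member passed this test. Only Slc2a3 in Eed, Gapdh and Pkm in Ezh2, and Aldoc in Brd8 passed in every alternative tried. Leaving out single libraries took the number called to between 2 and 8 in Eed, 2 and 9 in Ezh2 and 1 and 6 in Brd8. With no filter on low counts it was 10, 19 and 10 in Eed, Ezh2 and Brd8 and 1 in Nr6a1, and a fit of only the groups compared gave 15 in Ezh2.

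Eed and Ezh2 encode partners in one complex, and their libraries were compared directly at day 11. One member passed (1 of 35, against 2.88% of all tested genes): Hk1 had 63.3, 75.3 and 38.4 CPM in Eed and 78.9, 89.6 and 82.6 CPM in Ezh2 libraries (-0.50 ± 0.14, adjusted p = 0.0377). That share is near that of all tested genes, so the count is no result about the members. For Hk1 all Eed libraries lay below all Ezh2 libraries, but the call was lost without Eed replicate 3 or any one Ezh2 library. It was also lost in a fit of only the groups compared, where 0 members passed, while 4 passed with no filter on low counts and 2 by DESeq2. Egln3 was next, with -0.59 ± 0.18 (adjusted p = 0.063). Ldha had -0.034 ± 0.31, Gapdh 0.078 ± 0.10 and Vegfa -0.12 ± 0.15, and none of these passed, which does not show that the levels were equal.

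Other genes of the same pathways came from lists chosen with earlier results of these data known. Of 35 further HIF targets tested, 10 rose and none fell in Eed at day 9, and 14 rose and 1 fell in Brd8. At day 11 16 rose and 3 fell in Eed, 9 rose and 2 fell in Ezh2, and 14 rose and 2 fell in Brd8. Over all tested genes the shares changed were 5.14% and 15.5% in Eed and Brd8 at day 9 and 24.0%, 7.91% and 17.8% in Eed, Ezh2 and Brd8 at day 11. At day 7 the counts were 3 and 2 in Eed and 5 and 0 in Brd8 (8.66% and 4.75% of all genes), and no gene of the list passed in Ezh2 at days 7 and 9 or in Nr6a1 at any day. Bnip3l, a receptor for mitochondrial removal like Bnip3, rose at day 11 by 0.69 ± 0.12 in Eed, 0.63 ± 0.12 in Ezh2 and 0.70 ± 0.12 in Brd8. Fam162a rose at day 9 by 1.53 ± 0.25 in Eed, and Ero1l, an oxidase of protein folding, at day 11 by 0.62 ± 0.12 in Eed and 0.66 ± 0.12 in Brd8. Mif, a cytokine, rose at day 11 by 0.77, 0.72 and 0.82 in Eed, Ezh2 and Brd8. Plod1, a collagen lysyl hydroxylase, fell in Eed at day 11 (-0.97 ± 0.20).

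Of 19 tested genes on a second list of glycolysis and glucose handling, 2 rose and 3 fell in Eed at day 11, 1 rose and none fell in Ezh2, and 3 rose and 3 fell in Brd8. At day 9 the numbers were 1 and 0 in Eed and 4 and 0 in Brd8, against 5.14% and 15.5% of all tested genes changed. The Eed and Brd8 shares at day 9 were near those of all genes, so these counts are no result about the list. In Eed and Ezh2 at day 11 the shares of this list that changed were near those of all tested genes (24.0% and 7.91%), so these counts are no result about the list. The Brd8 share at day 11 compares with 17.8%. Slc16a1, another lactate carrier, rose at day 11 by 0.87 ± 0.13 in Eed, 0.47 ± 0.13 in Ezh2 and 0.69 ± 0.13 in Brd8. Ldhb, the lactate dehydrogenase subunit that complements Ldha, fell at day 11 in Eed (-0.35 ± 0.11) and in Brd8 (-0.34 ± 0.11). Of 12 genes of pyruvate entry into mitochondria, 2 rose and 1 fell in Eed at day 11, 2 rose in Ezh2 and 3 rose in Brd8, against 24.0%, 7.91% and 17.8% of all tested genes changed in the same comparisons; the Eed share is near that of all genes. These were Pdk3, a second kinase of pyruvate dehydrogenase (0.93, 0.61 and 0.70), Dlat, a core subunit of that enzyme (0.60, 0.40 and 0.31), and in Brd8 its phosphatase Pdp2 (0.44), while Mpc1, part of the mitochondrial pyruvate carrier, fell in Eed (-0.57). Leaving out 1 library ended the day 11 calls of Ldhb (Eed replicate 1 or 2 or NT replicate 2 in Eed; Brd8 replicate 1 or 3 or NT replicate 1 or 2 in Brd8) and of Mpc1 (any Eed library or NT replicate 3). It also ended those of Slc16a1 in Ezh2 (Ezh2 replicate 1 or NT replicate 3), Pdk3 in Ezh2 (Ezh2 replicate 1 or 3 or NT replicate 2 or 3), Dlat in Ezh2 (Ezh2 replicate 1 or 2 or NT replicate 2 or 3) and in Brd8 (any Brd8 library or NT replicate 2 or 3), and Pdp2 in Brd8 (Brd8 replicate 3).

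Among 11 regulators of HIF, 2 rose and 1 fell in Eed at day 11, 1 rose and 1 fell in Brd8, and none passed in Ezh2. In Eed and Brd8 these shares are near those of all tested genes (24.0% and 17.8%). Hif1a, the oxygen-regulated alpha subunit, fell in Eed at day 9, with 212, 198 and 212 CPM, against 246, 258 and 241 CPM in NT (-0.26 ± 0.069, adjusted p = 0.0217). Hif3a, an alpha subunit with forms that restrain HIF, rose at day 7 by 1.23 ± 0.38 in Eed and 1.30 ± 0.38 in Brd8 and at day 9 by 1.21 ± 0.34 and 1.22 ± 0.38. The Hif1a call was lost without Eed replicate 2 or 3 or any one NT library. The Hif3a calls were lost at day 7 without Eed replicate 1 or 2 or NT replicate 1 or 2 in Eed and without any library except Brd8 replicate 3 in Brd8, and at day 9 without Eed replicate 2 or 3 or NT replicate 1 or 3 in Eed and without either Brd8 library or NT replicate 1 or 3 in Brd8. At day 11 Arnt, the constant partner of the alpha subunits, rose in Eed (0.57 ± 0.12), and Cited2, which competes with HIF for a coactivator, rose in Eed (0.55 ± 0.13) and Brd8 (0.52 ± 0.13). The regulator that fell at day 11 was Arnt2, in both Eed and Brd8. HIF activity is set mainly at the protein level, which was not measured.

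Markers of dividing cells rose in the comparisons with NT in which members were called, but their levels did not follow the members in every group. Of 15 cell cycle genes, 8, 12 and 15 rose in Eed at days 7, 9 and 11, 0, 0 and 14 in Ezh2, 2, 15 and 15 in Brd8, and none in Nr6a1. Of all tested genes, 2.9%, 2.99% and 13.3% rose in Eed and 1.3%, 7.72% and 10.3% in Brd8 at these days, and 5.22% in Ezh2 at day 11. In Ezh2 at day 9 no tested gene was called (0.0%). The summed level of the cell cycle genes at day 11 was 2021 to 2288 CPM in Eed, 1612 to 1881 in Ezh2, 1796 to 2214 in Brd8 and 1068 to 1387 in Nr6a1, against 1085 to 1151 CPM in NT. In Ezh2 at day 7 it was 3909 to 4195 CPM, above the 3505 to 3729 CPM of NT, while no member was called. In Ezh2 at day 9 it was 2094 to 2389 CPM and overlapped the 1937 to 2289 CPM of NT, while most glycolysis members lay above NT. All 15 cell cycle genes fell in NT between day 7 and day 11, when 5 glycolysis members rose and 4 fell. Over all tested genes, 10.6%, 2.7% and 7.48% fell in Eed, Ezh2 and Brd8 at day 11. Of the 10 neural progenitor markers, 1 rose and 4 fell at day 11 in each of Eed, Ezh2 and Brd8, and none passed in Nr6a1. Their summed level at day 11 was 1888 to 2026 CPM in Eed, 2205 to 2443 in Ezh2, 2117 to 2266 in Brd8 and 2324 to 2441 in Nr6a1, against 2648 to 2807 CPM in NT. Neuron markers were lower at day 7 for 9 of 10 in Eed and 7 of 10 in Brd8, and at day 9 for 2 of 10 in Eed and 7 of 10 in Brd8. Of all tested genes, 5.76% and 3.45% fell in Eed and Brd8 at day 7, and 2.16% and 7.81% at day 9. At day 11 the neuron markers summed to 4090 to 4318 CPM in Eed, 4855 to 5362 in Ezh2 and 4348 to 4979 in Brd8. The NT libraries had 4677 to 5088 CPM, so only the Eed range lay wholly below them. Of 5 tested muscle markers, 4 rose in Eed, 3 in Ezh2 and 4 in Brd8 at day 11, with summed levels of 70.1 to 88.8 CPM in Eed, 34.9 to 47.2 in Ezh2 and 114 to 154 in Brd8, against 0 to 6.68 CPM in NT, where Ckm and Myod1 were at 0. Of 7 epithelium markers, 5 rose in Eed at day 11 (172 to 329.7 CPM summed, against 14.8 to 23.7 CPM in NT, where Krt4 was at 0). Of 6 neural crest markers, 3 rose in each of Eed, Ezh2 and Brd8 at day 11. The part of dividing, neural progenitor, neuronal, muscle, epithelial or neural crest cells in the members' values was not tested.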

How the data were processed

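Total RNA was made into stranded, ribosomal RNA depleted libraries, per the labels' protocols; the labels give the material as genomic DNA, which these protocols go against. The values are estimated counts per gene as the authors deposited them: 2.95% of values, in 2426 genes, were not whole and were rounded. Of the build and tools, mm10 and DESeq2 appear in the submitters' processing notes, with no aligner or counting tool given there. CPM values and all tests were computed here. One edgeR 4.0.16 fit (R 4.3.3, limma 3.58.1) covered 41 libraries in 15 groups, with filterByExpr, TMM and the quasi-likelihood test, two-sided, with Benjamini-Hochberg adjustment over 15204 genes and a threshold of 0.05. Totals of 8581282 to 38240227 counts per library set the precision, and low genes are the least certain. Alternatives were DESeq2 1.42.0, DESeq2 size factors, no count filter, a fit of only the groups compared, the replicate number as a block, and leaving out libraries.

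The members and all gene lists were chosen with earlier results of these data known, so no list is independent evidence of its direction. Values by library were to be given for up to 6 glycolysis and 6 hypoxia response members with the smallest adjusted p in a comparison, and for up to 4 genes of each other pathway list. Such values are not printed for every gene so named, and a gene named in 1 group is not always given for the other groups of that day. Values by library of Ldha at day 11, Slc16a3, Ndrg1, Adm and Car9 fall outside this rule and were added after their values were seen. Among the comparisons with NT, the rule named Ldha at day 9 only in Ezh2 and Aldoc at days 9 and 11 only in Nr6a1. It named Slc2a3 in Ezh2 at day 7 and in Nr6a1 at days 7, 9 and 11. Values of Ldha, Aldoc and Slc2a3 in other groups were added after they were seen. Promoter sequences and windows came from RefSeq tables of GRCm38.p6, and gene lengths from merged mm10 exons. Same-numbered libraries did not deviate together (correlation over 0.1 in none of the 2 or 3 pairs of each comparison with NT, and in 1 of 3 pairs of Eed with Ezh2), so the block is an alternative.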

Additional observations from a re-analysis of the deposited data

Results flagged for a closer look

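The difference from NT changed between day 7 and day 11 for 15 pairs of member and group, by a direct test of the day 11 difference minus the day 7 difference (edgeR's quasi-likelihood test, adjusted p under 0.05). All 3 groups share the NT libraries of both days. In Eed the change was 1.62 for Slc2a3, 0.777 for Pfkfb3, 0.534 for Gpi1, 0.499 for Gapdh, 0.486 for Pkm and -1.8 for Aldoc on the log2 scale. In Ezh2 it was 1.51 for Slc2a3, 0.737 for Pkm, 0.71 for Gapdh and 0.592 for Gpi1. In Brd8 it was 1.48 for Slc2a3, 0.79 for Pfkfb3, 0.552 for Gapdh, 0.519 for Gpi1 and -2.69 for Aldoc. Only the calls of Slc2a3 in Eed, Gapdh and Pkm in Ezh2, and Aldoc in Brd8 held in every alternative tried. A positive value means that the level relative to NT was higher at day 11 than at day 7. For Gapdh and Pkm the NT level fell over these days, and for Aldoc it rose.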

How the results depend on the processing

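Of the recomputed counts of called members, 208 stayed within 1.5 times the reported count and 61 did not; of the recomputed gene values, 3279 kept direction and side of the threshold, 414 fell short of it, 55 newly passed and 4 turned sign. Leaving out 1 library gave 1 to 10 called members for Eed at day 7, 0 to 0 for Ezh2 at day 7 and 2 to 10 for Brd8 at day 7. At day 9 it gave 18 to 22 for Eed, 0 to 6 for Ezh2 and 19 to 21 for Brd8, and at day 11 22 to 28 for Eed, 16 to 21 for Ezh2 and 19 to 24 for Brd8. In NT it gave 9 to 11 from day 7 to day 9, 3 to 5 from day 9 to day 11 and 14 to 17 from day 7 to day 11; for Eed against Ezh2 it gave 0 to 1, and for the change of effect 2 to 8 in Eed, 2 to 9 in Ezh2 and 1 to 6 in Brd8. With no filter on low counts the number was 18 for Eed, 3 for Ezh2, 18 for Brd8 and 4 for Nr6a1 at day 7, 18 for Ezh2 and 2 for Nr6a1 at day 9, 1 for Nr6a1 at day 11, 13 for NT from day 9 to day 11, 4 for Eed against Ezh2, and for the change of effect 10 in Eed, 19 in Ezh2, 10 in Brd8 and 1 in Nr6a1. A fit of only the groups compared gave 14 for Eed, 1 for Ezh2 and 18 for Brd8 at day 7, 10 for Ezh2 and 1 for Nr6a1 at day 9, 0 for Eed against Ezh2, and 15 for the change of effect in Ezh2. DESeq2 called 3 in Ezh2 at day 9 and 2 for Eed against Ezh2. The replicate block gave 2 for Eed against Ezh2 and moved no other count by over 1.5 times; it ended the calls of Egln1 in Brd8 at day 9 and of Pkm in the change of effect in Eed. Without the 2 libraries of lowest agreement, Eed against Ezh2 gave 0. The cause of these moves was not tested.

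The values that turned sign were all of targeted transcripts, none of them called: Ezh2 at day 7 (0.0199 without Ezh2 replicate 2, 0.0172 without NT replicate 1, lowest -0.0705), Eed at day 9 (-9.83e-05 without NT replicate 2, highest 0.2) and Brd8 at day 9 (-0.0878 without Brd8 replicate 2, highest 0.192). Depth limits Car9, Adm, Ankrd37, Ndrg1 and P4ha2 most.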

Other observations

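Ppp1r3c, a listed HIF target that is no member and that binds protein phosphatase to glycogen, was among the few listed targets that fell. At day 11 it had 9.06, 5.57 and 4.38 CPM in Eed, 8.16, 9.29 and 7.69 in Ezh2, 6.08, 6.58 and 5.03 in Brd8 and 23.6 and 14.8 in Nr6a1 libraries, against 13.2, 22.5 and 28.5 CPM in NT. It fell in Eed (-1.74 ± 0.41, adjusted p = 0.00161), Ezh2 (-1.35 ± 0.41, adjusted p = 0.0304) and Brd8 (-1.85 ± 0.42, adjusted p = 0.00121) by edgeR. In NT it rose from day 7 to day 11 (4.68 ± 0.50), as Aldoc did.

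In NT libraries between day 7 and day 11, 11 of the 35 other HIF targets rose and 2 fell, against 45.2% of all tested genes changed. That share is somewhat below that of all genes, so the count is no result about the list. Of 19 further glycolysis genes 6 rose and 3 fell, a share near that of all genes, and of 12 genes of pyruvate entry 4 rose and 4 fell. Bhlhe40, a transcriptional repressor, changed by 2.93 ± 0.19 and Ldhb by 1.22 ± 0.11 on the log2 scale (adjusted p = 1.58e-15 and 4.40e-12, edgeR). Hif3a rose by 3.15 ± 0.37, the same gene that was higher in Eed and Brd8 than in NT at days 7 and 9.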
